A study of Homo sapiens with 6 samples.

Results

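The let-7 miRNAs are made from hairpin precursors that are cut into a duplex of 2 short strands, named 5p and 3p after the arm of the hairpin they come from. The Argonaute protein keeps 1 of them, preferring the strand whose 5′ end is held less tightly and starts with U or A, and in the let-7 family this guide strand is the 5p one. The 3p strand, or passenger strand, is mostly released and degraded, although what is left of it can be loaded and carries a seed of its own. In the retina, let-7 guide strands hold back proliferation and are tied to the limited regenerative response of Müller glia, the radial glia that span the tissue.

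The 10 passenger strands described here were taken by name from the deposited tables, out of 2576 mature miRNAs listed. They are hsa-let-7a-3p, hsa-let-7a-2-3p, hsa-let-7b-3p, hsa-let-7d-3p, hsa-let-7e-3p, hsa-let-7f-1-3p, hsa-let-7f-2-3p, hsa-let-7g-3p, hsa-let-7i-3p and hsa-miR-98-3p, named here without the species prefix from now on. They were measured by small RNA sequencing of MIO-M1, a spontaneously immortalised human Müller glia line of wild-type genotype, grown in DMEM with foetal calf serum and antibiotics. The whole cell group holds 3 libraries (passages 22, 24 and 26) made from cell pellets with a total RNA kit. The extracellular vesicle (EV) group holds 3 libraries (passages 23, 25 and 27) made with a separate exosome RNA kit from vesicles spun out of conditioned medium, which, per the methods, were treated with RNase A before extraction. The labels and the methods differ on how long the medium was conditioned, on the number of washes and on whether it was free of serum or depleted of vesicles. Libraries are called replicates 1 to 3 of their group in order of passage. The p-values measure the spread between libraries from different passages of 1 cell line, with differences in isolation and library preparation included. That line is the only Müller glia model in these data.

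Of the 10 strands, 9 had a mature sequence in RefSeq (GRCh38.p14). They are printed 5′ to 3′ with the seed, bases 2 to 8, in capitals, because the seed sets which transcripts a loaded strand can pair with and because it splits the passenger strands where it unites the guide strands. The first set shares the seed UAUACAA.
let-7a-3p: cUAUACAAucuacugucuuuc
let-7b-3p: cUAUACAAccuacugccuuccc
let-7f-1-3p: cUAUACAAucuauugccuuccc
miR-98-3p: cUAUACAAcuuacuacuuuccc

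The second set shares the seed UGUACAG.
let-7a-2-3p: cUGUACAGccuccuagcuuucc
let-7g-3p: cUGUACAGgccacugccuugc

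The last 3 each had a seed of their own.
let-7d-3p: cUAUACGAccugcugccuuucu
let-7e-3p: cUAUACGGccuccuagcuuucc
let-7i-3p: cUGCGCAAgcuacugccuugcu

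The guide strand of the same precursors is shown for comparison by 2 examples, the usual form and the 1 that starts with another base.
let-7a-5p: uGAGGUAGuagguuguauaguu
let-7d-5p: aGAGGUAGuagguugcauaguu

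All 9 passenger strands began with C, as did 27.4% of the 822 mature 3p names in the same RefSeq table and 21.8% of all 2370 mature names. Of the 8 guide strands, 7 began with U and let-7d-5p with A. The guide strands held 1 seed, GAGGUAG, and the passenger strands held 5, none of which was found in another mature miRNA of that table. Passenger strands also varied more in base composition, from 33.3% G and C in let-7a-3p to 61.9% in let-7g-3p, against 31.8% to 45.5% among the guides. Some pairs were near copies. let-7a-2-3p and let-7e-3p differed at 2 of 22 positions, as did let-7b-3p and let-7f-1-3p, so reads with errors could be split between them.

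A passenger strand can tell loci apart where the guide cannot. let-7a-5p comes from 3 precursors, whereas let-7a-2-3p comes only from the 1 on chromosome 11, at chr11:122146523-122146544 on the minus strand (GRCh38.p14) in an intron of MIR100HG. let-7a-3p comes from the other two, at chr9:94176013-94176033 in an intron of the lincRNA AL158152.2 and at chr22:46112800-46112820 in an exon of MIRLET7BHG. let-7f-1-3p (chr9:94176409-94176430) and let-7d-3p (chr9:94178895-94178916) lie in introns of the same lincRNA as the chromosome 9 copy of let-7a, and let-7b-3p (chr22:46113745-46113766) lies in MIRLET7BHG. The remaining sequences lie in introns: let-7e-3p in SPACA6 (chr19:51692838-51692859), let-7g-3p in WDR82 (chr3:52268280-52268300, minus strand), let-7i-3p in AC048341.1 (chr12:62603747-62603768) and miR-98-3p, like the let-7f-2 precursor, in HUWE1 (chrX:53556241-53556262, minus strand). Gene annotation is that of GENCODE 29.

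Values are raw read counts per mature miRNA, given also in CPM, the count scaled by the total count of its library. Whole cell libraries held 396025 to 3990900 counts in total and EV libraries 1225541 to 3134561. Where a strand has a count of 0, a true level of as much as 3 counts is possible, which amounts to 0.752 to 7.58 CPM for whole cells and 0.957 to 2.45 CPM for EV. These limits, and the intervals below, cover counting error only, since reads and not molecules were counted. In such bulk samples, fewer vesicles or cells holding a strand and less of it in each cannot be told apart. All 6 listed Müller glia miRNAs, taken from work on rodents, were counted in every library. Their summed level was 184531 to 203000 CPM in whole cells and 191941 to 242106 CPM in EV. Single members moved both ways. DESeq2 called miR-204-5p (log2 fold change −2.16, adjusted p = 3.6e-06) and miR-125b-5p (−1.39, adjusted p = 0.0149) as lower in EV. It called miR-16-5p (1.47, adjusted p = 7.0e-05) as higher, and none of miR-9-5p, miR-100-5p and let-7c-5p. Of 6 blood cell miRNAs, 4 were counted in at least 1 whole cell library and 6 in at least 1 EV library. Only 1 was counted in every whole cell library and 3 in every EV library. The summed level of the 6 was 164 to 1163 CPM against 1549 to 2250 CPM. Most of it was miR-486-5p, which DESeq2 did not call (log2 fold change 0.65, adjusted p = 0.501). DESeq2 called miR-451a (9.25, adjusted p = 3.1e-07) and miR-142-3p (9.87, adjusted p = 3.9e-14) as higher in EV. The defining miR-451a and miR-144-3p were at 0 in every whole cell library. In EV, miR-144-3p and miR-150-5p were counted in replicate 2 only. Of 4 retinal neuron miRNAs, 3 were counted in at least 1 library of each group, at 227 to 333 CPM against 1151 to 1218 CPM, with miR-124-3p at 0 throughout. Those 3 were counted in every whole cell library but only 2 in every EV library, as miR-96-5p was in EV replicate 2 only. DESeq2 called miR-182-5p (log2 fold change 2.02, adjusted p = 1.5e-05) and miR-183-5p (1.87, adjusted p = 0.000305) as higher in EV. It gave miR-96-5p no adjusted p. The part of these sets of miRNAs in the levels that follow was not tested.

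let-7d-3p was the leading passenger strand in both groups and the only 1 of the 10 counted in every EV library. Of the reads of all 10 it took 38.8%, 61.4% and 68.8% in the whole cell libraries, in order of replicate, and 33.9%, 54.2% and 60.6% in the EV libraries. All 10 had at least 1 count somewhere, and 7 were counted in all whole cell libraries. Together they summed to 202.01, 339 and 438 CPM in whole cells (326 ± 118, SD, n = 3) and to 342, 347 and 190 CPM in EV (293 ± 89.4, SD, n = 3), so the summed levels overlapped. Set against the summed guide strands, this was 60.5, 109 and 146 passenger reads per 100000 guide reads in whole cells and 96.6, 160 and 65.9 in EV. Without let-7d-3p, the others summed to 124, 131 and 137 CPM in whole cells and to 226, 159 and 74.7 CPM in EV. The similar whole cell sums held members that moved in opposite ways. In whole cell replicate 1, let-7b-3p was at its lowest in that group and let-7i-3p at its highest.

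**Figure D1:**
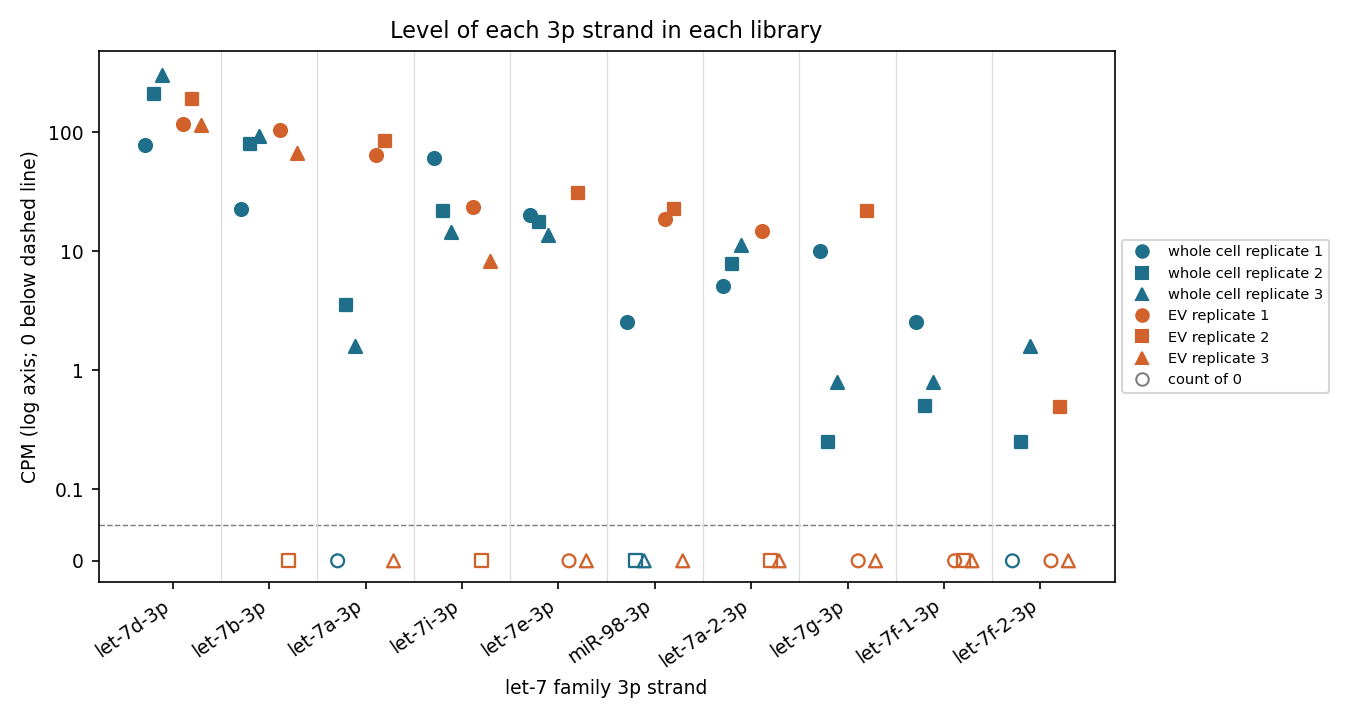
Level of each let-7 family 3p strand (x axis) in CPM (y axis, log scale, with counts of 0 below the dashed line) in each whole cell (blue) and EV (orange) library, the marker shape giving the replicate. let-7d-3p sits highest in both groups, and 15 of the 30 EV values lie at 0 against 4 of the 30 whole cell values.

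The level of let-7d-3p was 78.3, 208 and 301 CPM in whole cells (31, 830 and 377 counts) and 116, 188 and 115 CPM in EV (142, 383 and 360 counts). The EV libraries fell inside the range of the whole cell libraries. The log2 fold change, EV against whole cells, was −0.61 ± 0.69 (SE, edgeR, adjusted p = 0.590), with a 95% interval from −2.22 to 1.01. It was −1.15 without whole cell replicate 1 (edgeR, adjusted p = 0.165), the library with the lowest let-7d-3p, and −0.19 without whole cell replicate 3 (edgeR, adjusted p = 0.917), the library with the highest.

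let-7b-3p followed in both groups. It had 22.7, 79.2 and 92.6 CPM in whole cells, and 104, 0 and 66.4 CPM in EV. EV replicate 2, with 2038635 reads in total, held none, while the other two EV libraries held 128 and 208 counts, within or above the whole cell range in CPM. Its log2 fold change was −0.15 ± 1.70 (SE, edgeR, adjusted p = 0.976), with a 95% interval from −4.12 to 3.82, and it turned to 0.34 without EV replicate 2.

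let-7i-3p and let-7e-3p came next in whole cells. let-7i-3p had 60.6, 21.5 and 14.4 CPM in whole cells and 23.7, 0 and 8.29 CPM in EV, again with the 0 in EV replicate 2 (log2 fold change −1.35 ± 1.67, SE, edgeR, adjusted p = 0.623, 95% interval −5.25 to 2.55). With a library left out this ran from −2.85, without EV replicate 1, to −0.91, without whole cell replicate 1. let-7e-3p was the steadiest in whole cells, at 20.2, 17.5 and 13.6 CPM, whereas in EV it was at 0 in replicates 1 and 3 and at 30.9 CPM (63 counts) in replicate 2, above every whole cell library. Its log2 fold change was −0.95 ± 1.94 (SE, edgeR, adjusted p = 0.777; 95% interval −5.49 to 3.59), and without EV replicate 2 it was −8.06 (edgeR, adjusted p = 0.016), a size that depends on the prior count because both remaining EV libraries were at 0. EV replicate 2 thus lacked let-7b-3p and let-7i-3p, which both other EV libraries held, and was the only EV library with let-7e-3p.

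let-7a-2-3p and let-7a-3p, the passenger strands of the let-7a precursors, were ordered differently in the groups. let-7a-2-3p, from chromosome 11, had 2, 31 and 14 counts in whole cells and 18, 0 and 0 in EV. let-7a-3p, from chromosomes 9 and 22, had 0, 14 and 2 counts in whole cells and 79, 170 and 0 in EV. let-7a-2-3p had the higher count in all 3 whole cell libraries, and let-7a-3p had it in EV replicates 1 and 2, whilst EV replicate 3 held neither among 228912 reads of let-7a-5p. The log2 fold change for let-7a-2-3p was −0.68 ± 1.91 (SE, edgeR, adjusted p = 0.835), with a 95% interval from −5.16 to 3.80, and, without EV replicate 1, −7.24 (edgeR, adjusted p = 0.0135), again against EV libraries at 0 only. let-7a-3p reached 64.5 and 83.4 CPM in EV against a highest whole cell value of 3.51 CPM, but missed the filter of 5 CPM in at least 3 of 6 libraries. In a fit with no filter, which called 20.2% of the 1188 miRNAs with any count and none of the 10 strands, its log2 fold change was 4.20 ± 1.85 (SE, edgeR, adjusted p = 0.0816). EV replicates 1 and 2 lay above every whole cell library, while EV replicate 3 was at 0, as was whole cell replicate 1. As this strand has 2 loci, its level, and its order against the single-locus let-7a-2-3p, depend on how reads with several alignments were counted, for which no setting is given. The guides let-7a-5p and let-7f-5p also have several loci, so their counts and every ratio over them depend on it too.

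miR-98-3p and let-7g-3p had few counts in whole cells. In EV, miR-98-3p was counted in replicates 1 and 2 and let-7g-3p in replicate 2 only. miR-98-3p had 1, 0 and 0 counts in whole cells and 23, 46 and 0 in EV, that is 18.8 and 22.6 CPM in the EV libraries that held it (no filter: log2 fold change 4.39 ± 2.43, SE, edgeR, adjusted p = 0.153). let-7g-3p had 4, 1 and 1 counts in whole cells, that is 10.1, 0.251 and 0.799 CPM. In EV it had 0, 44 and 0 counts, with 21.6 CPM in replicate 2 (no filter: log2 fold change 0.97 ± 2.12, SE, edgeR, adjusted p = 0.703). let-7a-3p and miR-98-3p, which share the seed UAUACAA, were thus both high in EV replicates 1 and 2 and at 0 in EV replicate 3. The others with this seed had other patterns, as let-7b-3p was at 0 in EV replicate 2 only and let-7f-1-3p in every EV library.

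The let-7f passenger strands were at the limit of detection. let-7f-1-3p had 1, 2 and 1 counts in whole cells and 0 in all 3 EV libraries. let-7f-2-3p had 0, 1 and 2 counts in whole cells and 0, 1 and 0 in EV. Both groups were at or under 3 counts, so no fold change is given. let-7f-1-3p was the only one of the 10 whose EV libraries all lay below the whole cell libraries, a pattern held by 16.9% of the 1188 miRNAs with any count.

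In whole cells the order by mean CPM was let-7d-3p (196 ± 112, SD, n = 3), let-7b-3p (64.8 ± 37.1), let-7i-3p (32.2 ± 24.9), let-7e-3p (17.1 ± 3.33), let-7a-2-3p (8.0 ± 3.07), let-7g-3p (3.72 ± 5.54), let-7a-3p (1.70 ± 1.76), let-7f-1-3p (1.27 ± 1.09), miR-98-3p (0.842 ± 1.46) and let-7f-2-3p (0.616 ± 0.859). Among neighbours in that order, only let-7e-3p and let-7a-2-3p had libraries that did not overlap. In EV the order began with let-7d-3p (140 ± 41.9, SD, n = 3), let-7b-3p (56.9 ± 52.9), let-7a-3p (49.3 ± 43.7) and miR-98-3p (13.8 ± 12.1). It went on with let-7i-3p (10.7 ± 12.0), let-7e-3p (10.3 ± 17.8), let-7g-3p (7.19 ± 12.5), let-7a-2-3p (4.90 ± 8.48) and let-7f-2-3p (0.164 ± 0.283), with let-7f-1-3p at 0. Here only let-7d-3p and let-7b-3p did not overlap. let-7a-3p and miR-98-3p stood seventh and ninth in whole cells, and the third and the fourth in EV.

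Low counts were common in whole cells and almost missing in EV. Of the 30 values of the 10 strands in whole cells, 4 were 0, 13 lay from 1 to 9 and 13 were 10 or more. Of the 30 in EV, 15 were 0, 1 lay from 1 to 9 and 14 were 10 or more, the lowest of these being 18. The same held for all miRNAs, as those with 1 to 9 counts made up 50.9% to 53.6% of the miRNAs detected in a whole cell library and 6.56% to 10.2% in an EV library. The number of passenger strands with a count was 8, 9 and 9 in whole cells and 6, 6 and 3 in EV. With all libraries thinned to the smallest total it was 8, 6 and 7 against 6, 5 and 3, and with more than 3 counts required it was 5, 6 and 5 against 6, 5 and 3. Of the 5 strands past the filter, 4 had a 0 in at least 1 EV library, none of them in whole cells. Among all 430 filtered miRNAs 40.5% had such a 0 in EV, and 74.9% of the less abundant 215, to which these 4 belong.

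None of the 5 passenger strands that passed the filter (let-7d-3p, let-7b-3p, let-7i-3p, let-7e-3p and let-7a-2-3p) was called by edgeR at an adjusted p below 0.05, against 28.6% of the 430 miRNAs tested. DESeq2 called none of them either, against 35.5% of the 420 miRNAs to which it gave an adjusted p, and none had an unadjusted p below 0.05 with either tool. At the stricter threshold of an adjusted p below 0.01 and a log2 fold change of 2.5 or more in either direction, edgeR called 5.81% of all miRNAs. In none of the 5 were the groups free of overlap in CPM, which held for 48.4% of the filtered miRNAs. All 5 fold changes were below 0, with a median of −0.68 against −0.23 over all filtered miRNAs, and each 95% interval contained 0. The filter bears on this shared direction. let-7e-3p and let-7a-2-3p passed it through the whole cell libraries, whereas let-7a-3p and miR-98-3p, high in EV replicates 1 and 2, missed it. In the fit with no filter, let-7a-3p (4.20), miR-98-3p (4.39) and let-7g-3p (0.97) lay above 0, and both let-7f strands below. The median of that fit over all 1188 miRNAs was −2.41, and 182 of its 240 calls were lower in EV. Against this median, let-7f-2-3p lay above and let-7f-1-3p below. The guide strands were measured more tightly. All 8 passed the filter and 3 of them passed the test, let-7f-5p being higher in EV by 1.36 ± 0.39 on the log2 scale (SE, edgeR, adjusted p = 0.0377) and let-7d-5p and let-7e-5p lower. For let-7d the guide fell by 1.35 on the log2 scale with an SE of 0.28 (edgeR, adjusted p = 0.0117), where the passenger had the −0.61 ± 0.69 given above, and for let-7e the guide fell by 1.57 with an SE of 0.40 (edgeR, adjusted p = 0.0213). Whether passenger and guide changed differently is the question of the ratio that follows.

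**Figure D2:**
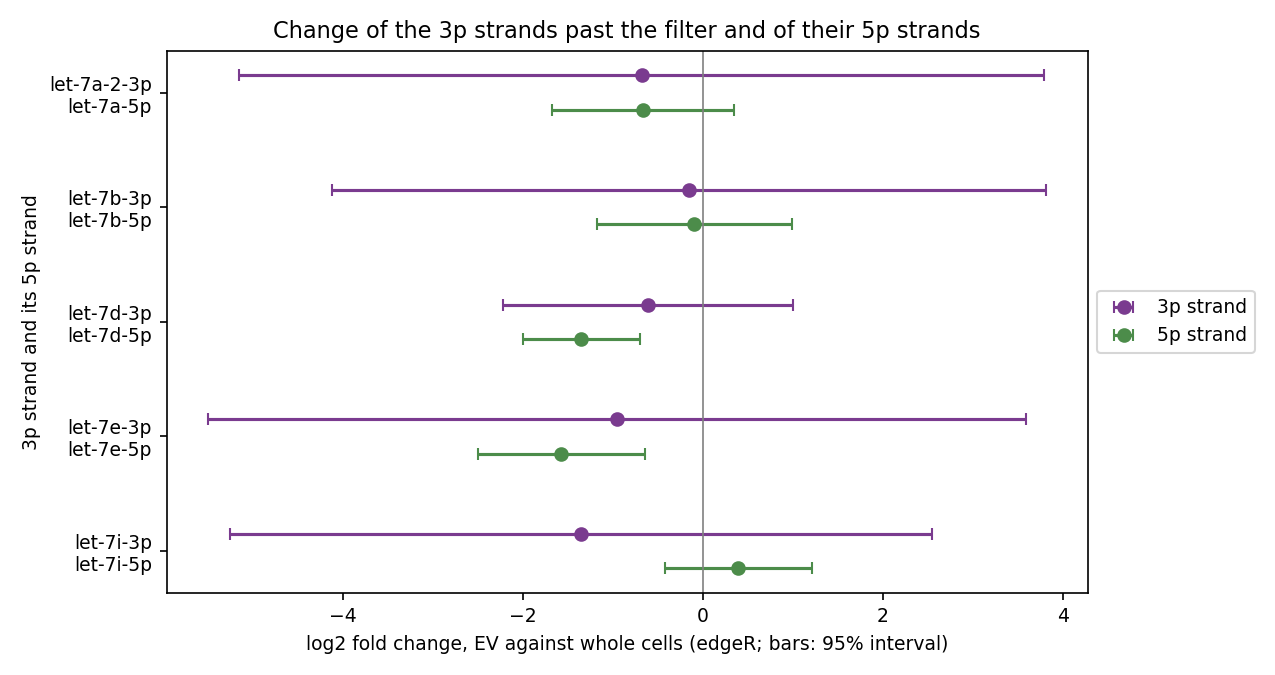
Log2 fold change, EV against whole cells (x axis, edgeR, with 95% intervals as bars), of the 5 passenger strands that passed the filter (purple) and of their guide strands (green). All 5 passenger intervals contain 0 and, but for let-7d-3p, are over 7 log2 units wide, whereas the guide intervals of let-7d-5p and let-7e-5p lie below 0.

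The 3p count was below the 5p count for all 10 strands in all 6 libraries. For let-7d-3p there were 2258, 7447 and 12814 passenger reads per 100000 guide reads in whole cells and 13333, 13601 and 10300 in EV. As a share of both strands this was 2.21% (Wilson 95% interval 1.56% to 3.12%), 6.93% (6.49% to 7.40%) and 11.4% (10.3% to 12.5%) in whole cells and 11.8% (10.1% to 13.7%), 12.0% (10.9% to 13.1%) and 9.34% (8.46% to 10.3%) in EV. The lowest shares were those of whole cell replicates 1 and 2, and whole cell replicate 3 lay within the range of the EV libraries. A two-sided exact permutation test on this ratio gave p = 0.2, where 3 against 3 libraries cannot give less than 0.1.

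Most other passenger strands were scarcer beside their guides. let-7b-3p had 30.2, 79.0 and 79.4 reads per 100000 of let-7b-5p in whole cells and 92.7, 0 and 69.9 in EV. let-7i-3p had 156, 68.0 and 38.6 against 44.7, 0 and 17.8, and let-7e-3p had 207, 110 and 79.2 against 0, 642 and 0. Both strands had a ratio above 0 in every whole cell library, and both had EV libraries at 0, 1 for let-7i-3p and 2 for let-7e-3p. let-7a-2-3p had 3.09, 5.83 and 10.6 in whole cells and 13.1, 0 and 0 in EV, and let-7a-3p had 0, 2.63 and 1.51 against 57.6, 147 and 0, both over the same let-7a-5p reads. miR-98-3p stood at 2668 and 5959 per 100000 in EV replicates 1 and 2, next only to let-7d-3p in those libraries and above its 2258 in whole cell replicate 1, although its 5p strand was itself the least abundant guide at 232 to 703 CPM in EV.

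**Figure D3:**
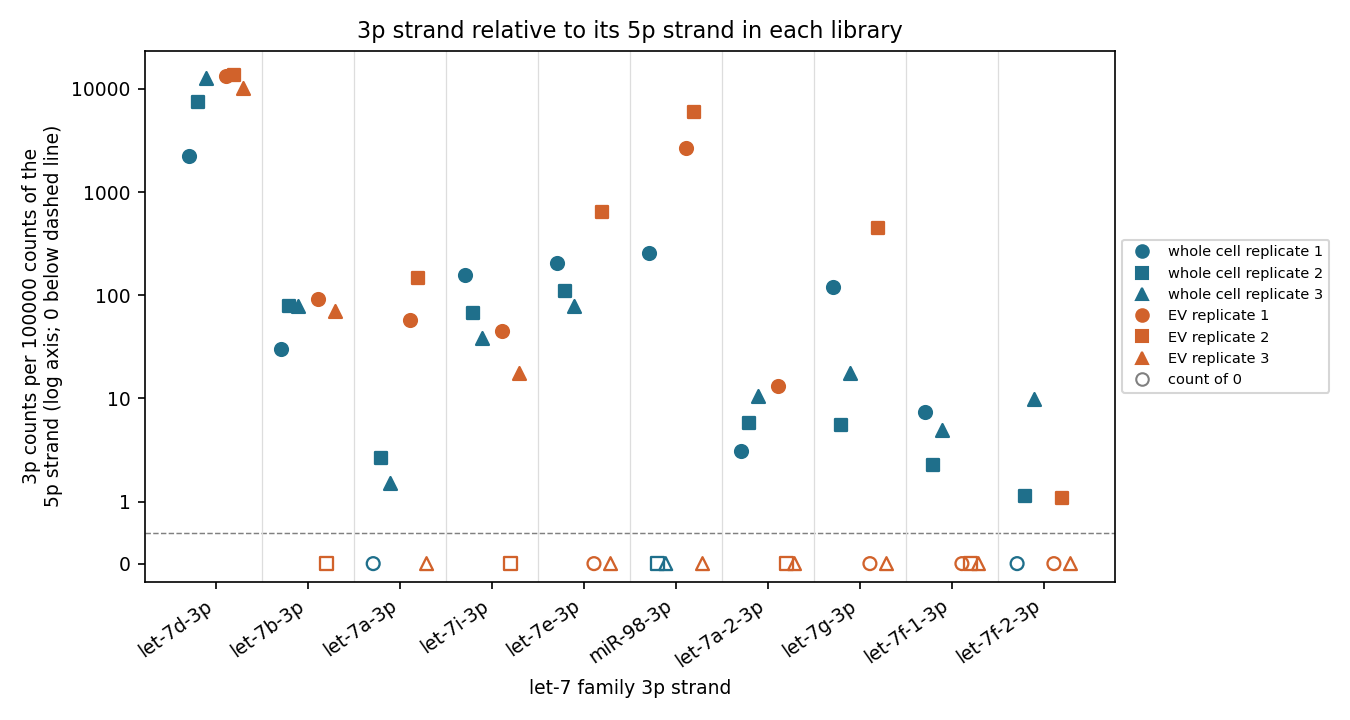
Reads of each 3p strand per 100000 reads of its own 5p strand (y axis, log scale, with counts of 0 below the dashed line), by library, in the order of the plot of levels. let-7d-3p lies between 2258 and 13601 in all 6 libraries, and miR-98-3p reaches 2668 and 5959 in EV replicates 1 and 2.

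The guide reads of each EV library can be set against the whole cell ratios, whose spread over the 3 whole cell libraries gives a range of passenger reads. Over that range, the let-7b-5p reads of EV replicate 2 correspond to 39.5 to 104 reads of let-7b-3p and its let-7i-5p reads to 30.7 to 124 reads of let-7i-3p, and 0 of each were counted. For let-7e-3p the range was 4.84 to 12.6 reads in EV replicate 1 and 12.3 to 32.2 in replicate 3, where 0 were counted, and 7.77 to 20.3 in replicate 2, where 63 were. For let-7a-3p it was 0 to 3.61 and 0 to 3.04 reads in EV replicates 1 and 2, where 79 and 170 were counted. The range for miR-98-3p rests on 1 whole cell read and was 0 to 2.22 and 0 to 1.99 reads, where 23 and 46 were counted. For let-7d-3p, 142, 383 and 360 reads were counted against 24.0 to 136, 63.6 to 361 and 78.9 to 448. Single EV libraries thus lay below the range for some strands and above it for others. This is a description without a test, and the range of 3 libraries does not hold all of the spread between samples.

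The change of the log2 ratio of 3p to 5p was tested with limma over all 189 miRNA pairs with enough reads, out of 857 named. let-7f-1-3p and let-7f-2-3p had too few. None of the 8 let-7 pairs tested was called at an adjusted p below 0.05, against 25.9% of all pairs, and none had an unadjusted p below 0.05. The libraries of the groups overlapped in the ratio for all 8, whereas 44.1% of the 152 pairs with a count of either strand in every library had no overlap. The ratio was higher in EV for miR-98-3p (3.17 ± 1.96, SE, limma, adjusted p = 0.304), let-7a-3p (2.96 ± 2.49, limma, adjusted p = 0.414) and let-7d-3p (1.03 ± 0.86, limma, adjusted p = 0.412), none past the test. It was lower for let-7i-3p (−3.24 ± 1.71, SE, limma, adjusted p = 0.236), let-7a-2-3p (−2.54 ± 1.67, limma, adjusted p = 0.326), let-7e-3p (−2.29 ± 2.01, limma, adjusted p = 0.427), let-7b-3p (−2.11 ± 2.21, limma, adjusted p = 0.501) and let-7g-3p (−0.10 ± 1.97, limma, adjusted p = 0.967), again none past the test. For let-7e-3p and let-7g-3p this direction depended on the log scale and the added 0.5, as only EV replicate 2 held either strand. Their mean passenger reads per 100000 guide reads were higher in EV, at 214 against 132 and at 151 against 48.0. On that scale let-7i-3p, let-7a-2-3p and let-7b-3p were still lower in EV. The intervals were wide. For let-7d-3p, the tightest, it ran from −1.05 to 3.12, so the difference between a guide that passed the test and a passenger that did not was itself not resolved. With a library left out it ran from 0.34, without whole cell replicate 1, to 1.58, without whole cell replicate 3. The change for let-7i-3p ran from −4.49, without EV replicate 1, to −1.40, without EV replicate 2.

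Each library was also left out in turn, and 4 let-7 ratios were called in 1 such fit each. Without EV replicate 3 the change was 5.87 for let-7a-3p (limma, adjusted p = 0.00814) and 5.13 for miR-98-3p (limma, adjusted p = 0.0316). Without EV replicate 1 it was −4.36 for let-7a-2-3p (limma, adjusted p = 0.0176), and without EV replicate 2 it was −4.61 for let-7e-3p (limma, adjusted p = 0.0211). In the last 2 cases both EV libraries left were at 0, so the size rests on the added 0.5. Calls were common in these fits, with 68, 50 and 41 of the 189 pairs called without EV replicates 3, 1 and 2. No library left out brought a call for the ratios of let-7b-3p, let-7d-3p, let-7g-3p or let-7i-3p. Over all alternatives the adjusted p ran from 0.00814 to 0.739 for let-7a-3p, from 0.0316 to 0.533 for miR-98-3p, from 0.0176 to 1.000 for let-7a-2-3p and from 0.0211 to 1.000 for let-7e-3p.

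The let-7 passengers were scarce even among pairs whose 5p strand leads. There were 88 tested pairs with the 5p strand higher in both groups, with a median log2 ratio of −4.76 in whole cells and −6.89 in EV, and the 8 let-7 pairs had medians of −10.55 and −12.39. Of these 88, none had a lower ratio than let-7a-3p in whole cells (−15.95), and 2 had a lower ratio than let-7a-2-3p (−13.95). The 88 include the 8 let-7 pairs themselves. Pairs whose lower strand had fewer than 10 counts, both let-7f pairs among them, were not ranked, so scarcer passengers are missing. let-7a-3p and let-7a-2-3p were also each set against all let-7a-5p reads, which come from several precursors. let-7d-3p stood apart from its family, with 49 of the 88 below it in whole cells (−4.05) and 67 in EV (−3.02). miR-98-3p had 15 of them below it in whole cells (−9.76) and 45 in EV (−6.59). The ratios of these scarce strands rest on the 0.5 added to each count.

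**Figure D4:**
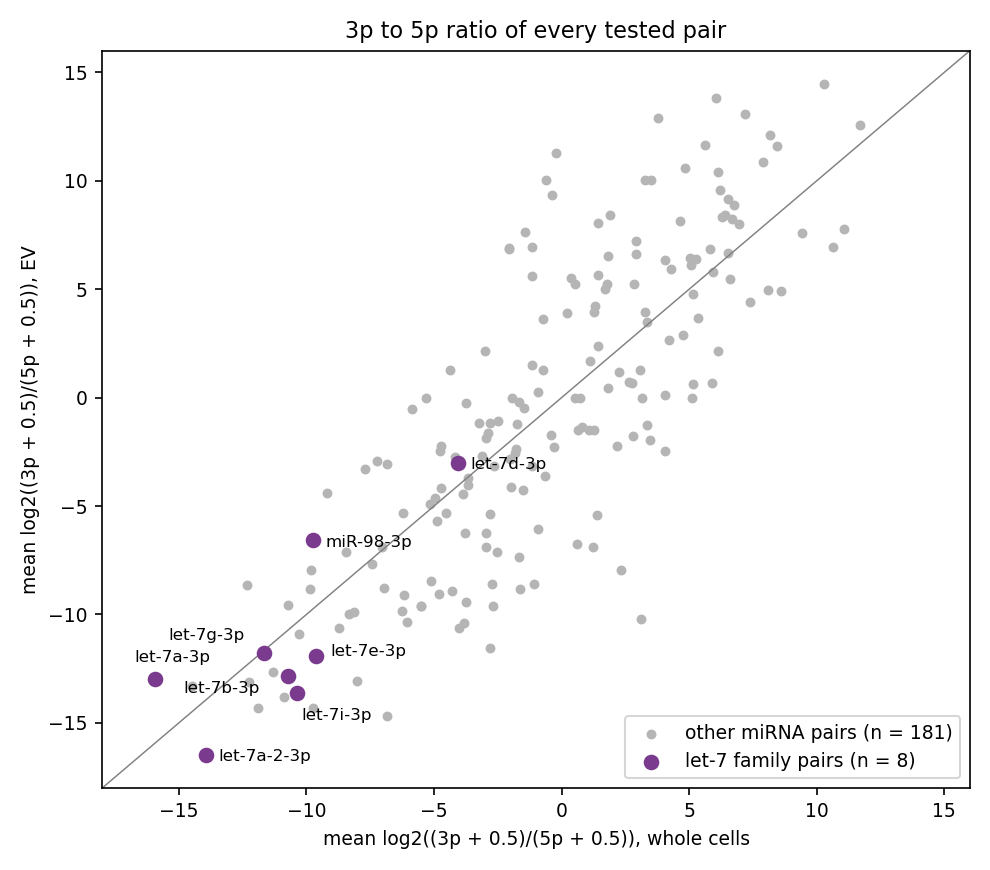
Mean log2 ratio of 3p to 5p counts, with 0.5 added to each, in whole cells (x axis) and EV (y axis) for all 189 tested miRNA pairs, each point the mean of 3 libraries, with the 8 let-7 family pairs in purple and the line of equal ratio in grey. Except for let-7d-3p, at −4.05 and −3.02, and miR-98-3p in EV, at −6.59, the let-7 pairs lie towards the lower left, where the 5p strand holds nearly all reads. let-7c-3p, which is not on the list, is drawn among the other pairs.

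let-7c-3p, the passenger of the remaining let-7 precursor, was not on the list. It had 12.6, 15.8 and 9.58 CPM in whole cells and 40.0, 22.6 and 28.4 CPM in EV (log2 fold change 1.29 ± 1.00, SE, edgeR, adjusted p = 0.412). The groups did not overlap, as was the case for 48.4% of the 430 filtered miRNAs. It was counted in all 6 libraries, as only let-7d-3p among the 10 was. Of the 8 strands of the miRNAs that share a primary transcript with let-7a-2 (miR-100 and miR-125b-1) or let-7e (miR-99b and miR-125a), 7 passed the filter and edgeR called none. DESeq2 called 1 of them, miR-125b-5p, as lower in EV (log2 fold change −1.39, DESeq2, adjusted p = 0.0149), where edgeR gave −1.19 (edgeR, adjusted p = 0.124).

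Over the 6 libraries, the filtered miRNAs whose log2(CPM + 4) ran most like let-7d-3p were miR-671-3p (Pearson r = 0.965), miR-3615 (r = 0.945) and miR-30d-5p (r = 0.941). These miRNAs were picked for their correlation, over libraries that differ in depth, so the values are descriptions. miR-671-3p had 55.6, 246 and 276 CPM in whole cells and 112, 153 and 111 CPM in EV, close to let-7d-3p in level as well. It and miR-3615 were lowest in whole cell replicate 1, like let-7d-3p, whereas miR-30d-5p was lowest in EV replicate 3.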

How the data were processed

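Per the file headers, the authors counted trimmed and aligned reads per mature miRNA with featureCounts 1.5.0-p1 (strand setting 1, miRBase release 20, Bowtie 1), and deposited raw counts. The methods name Bowtie2 and another miRBase release. No genome build and no setting for reads with several alignments is given in the sources used here, so coordinates are those of RefSeq (GRCh38.p14). Libraries were grouped by their labelled fraction. The 10 miRNAs, the lists and the alternatives were chosen with earlier results of these data known.

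Counts were scaled by TMM, filtered at 5 CPM in at least 3 of 6 libraries and tested with edgeR 4.0.16 (quasi-likelihood) in R 4.3.3, with Benjamini-Hochberg adjustment over all filtered miRNAs. DESeq2 1.42.0 was an alternative. For pairs whose summed strands passed this filter and whose lower strand had at least 10 counts, log2((3p + 0.5)/(5p + 0.5)) was tested with limma 3.58.1. let-7a-3p and let-7a-2-3p share 1 guide, as do both let-7f strands. Both tests were tried on simulated data. Named miRNAs were the 10, their guides, let-7c, transcript neighbours, and the 3 most like let-7d-3p. Alternatives covered tool, scaling, filter, threshold, thinning (seed 1), replicate block, added count and each library left out. Sums over the 10 were given no p. No 2 libraries were copies (smallest chi-square per degree of freedom 41.9). Figures were drawn with matplotlib 3.10.9.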

Additional observations from a re-analysis of the deposited data

How the results depend on the processing

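No setting that kept all 6 libraries brought a call for a let-7 passenger strand, in level or in ratio. Of the 5 strands fitted, 0 were called in the report, and 0 to 1 were when a library was left out. These were let-7a-2-3p without EV replicate 1 and let-7e-3p without EV replicate 2. Of the 8 ratios, 0 were called, and 0 to 2 with a library left out. The count of all miRNAs called by edgeR was 123. It was 240 with no filter, 56 with a replicate block, 25 at an adjusted p below 0.01 and a log2 fold change of 2.5 or more in either direction, and 74 to 143 with a library left out (74 without whole cell replicate 2, 81 without whole cell replicate 3). The count of pairs called was 49. It was 13 with diffSpliceDGE, 29 with both strands past the filter, 24 with the replicate block, and 13 to 68 with a library left out (13 without whole cell replicate 2, 14 without whole cell replicate 3). With RLE factors the median fold change of all miRNAs moved from −0.23 to −0.41 and no passenger strand changed direction. The replicate block moved let-7a-2-3p from −0.68 to −4.70, let-7e-3p from −0.95 to −5.01, let-7b-3p from −0.15 to −0.96, let-7i-3p from −1.35 to −2.32 and let-7d-3p from −0.61 to −0.34, with no call. The fold change of let-7b-3p changed sign, from −1.13 to 0.34 over the libraries left out. So did the ratio of let-7b-3p, from −3.50 to 0.46, and that of let-7g-3p, from −2.09 to 1.22. With 1 count added to each strand the let-7g-3p ratio was 0.25, and with diffSpliceDGE the ratios were 1.60 for let-7g-3p and 0.62 for let-7e-3p, while those of let-7a-2-3p and let-7b-3p, at −2.54 and −2.11 in the report, were close to 0 at −0.0047 and −0.059. The cause was not tested. Whole cell replicates 1 and 3 held 8 and 9 of the strands with any count and 5 each with more than 3. The main tests did not pair libraries by replicate number. The deviations of same-numbered libraries from their group means correlated at 0.0197, 0.0370 and −0.0129. This cannot show that they are unpaired, since each group mean rests on 3 libraries. At 396025 reads, whole cell replicate 1 limits any strand under 7.58 CPM.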
